A study of Danio rerio with 9 samples.

Results

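MicroRNA loci were followed in zebrafish larvae of the AB strain exposed to perfluorobutane sulfonate (PFBS), a short-chain perfluorinated sulfonate. The members were the rows that name a single gene with a microRNA locus name (mir followed by a digit) in the authors' 3 deposited tables, each of which compares a pair of exposure groups. The names numbered 48 among the 12126 genes named alone on a row. Of these names, 34 had a row in all 3 tables and 14 in 2 of them, and no row was left out for a low value. A solvent control (0.01% DMSO) was compared with PFBS at 16 µM and at 32 µM. Every group had 3 samples, and a sample was a pool of 15 whole animals taken at 96 h after fertilization. All groups were dechorionated by hand at 24 h and had their medium renewed every 24 h, and were kept, per the labels, at 37 °C, warmer than is usual for zebrafish. Per the labels' protocols RNA was selected by poly(A) and sequenced with strand kept, so that these values are levels of long primary or host transcripts and not of mature microRNAs.

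A microRNA is made from a long primary transcript. Drosha with Dgcr8 cuts a hairpin out of it in the nucleus, Xpo5 and Ran carry the hairpin to the cytoplasm, and Dicer1 cuts it to the mature form, which an Argonaute protein then uses to repress matching messenger RNAs. Some primary transcripts are transcribed for the microRNA alone, and others are introns or exons of a protein-coding host gene. In fish embryos and larvae many microRNAs are restricted to 1 tissue, such as miR-133 and miR-206 in muscle, miR-9, miR-124 and miR-128 in the nervous system and miR-205 and miR-429 in epithelia.

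The tables hold 1 value for each group, given as the log2 of FPKM (fragments per kilobase of transcript, scaled to the mapped fragments of the library). The depth per sample is unknown and no level or ratio here has an error of its own. A row is called, and said to have risen or fallen, where the authors' deposited table gives it a q-value under 0.05, and a positive log2 ratio means a higher level with PFBS or at the higher dose. The labels say that 3 experiments each gave 1 sample per group, and the sources used here do not give the test or the spread behind the q-values. The tables were processed as separate assemblies, so that levels from different tables stand side by side without a test, and the comparisons of the PFBS groups with control share the same control samples. Of 14 markers of muscle, heart, neurons, liver, pancreas, lens and blood, 10 had a row of their own, with control levels between 29.0 and 4545 FPKM in the table for 16 µM. The heart gene vmhc and the blood gene hbbe1.1 were listed in rows pooled with other genes, and the pancreas gene prss1 and the blood gene hbae1.1 matched no row by name. None of the 10 was called at 16 µM, where 0.260% of all rows were called, so for so few genes this says little. At 32 µM, where 1.83% of all rows were called, the pancreas gene ela3l rose by 0.62 and the liver gene tfa fell by 0.19. These are log2 ratios in the authors' deposited table. For 32 against 16 µM, where 0.329% of all rows were called, ela3l alone of the 10 was called, at 0.49 (q = 0.0194) in the authors' deposited table.

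The microRNA rows changed in few places and by large amounts. In the authors' deposited table for 16 µM against control, mir190b and mir214a rose and mir133c fell. In the authors' deposited table for 32 µM against control, mir135b rose and mir133c fell again, while mir190b did not pass the test and mir214a had no row. In the authors' deposited table for 32 against 16 µM, mir190b and mir214a were lower at the higher dose. The other microRNA rows did not pass the test in any table.

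At 16 µM, 3 of 48 microRNA rows were called (6.25%), 2 higher and 1 lower, against 0.260% of all 29280 rows of the authors' deposited table. At 32 µM, 2 of 39 rows were called (5.13%), 1 in each direction, against 1.83% of 26901 rows. For 32 against 16 µM, 2 of 45 rows were called (4.44%), both lower, against 0.329% of 29163 rows. The shares of microRNA rows lie above those of all rows in each table, but they rest on 2 or 3 rows and were not tested. The median log2 ratio of microRNA rows was 0.04 at 16 µM and 0.04 at 32 µM and -0.03 for 32 against 16 µM in the authors' deposited tables, and the median of all rows was 0 in each.

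**Figure D1:**
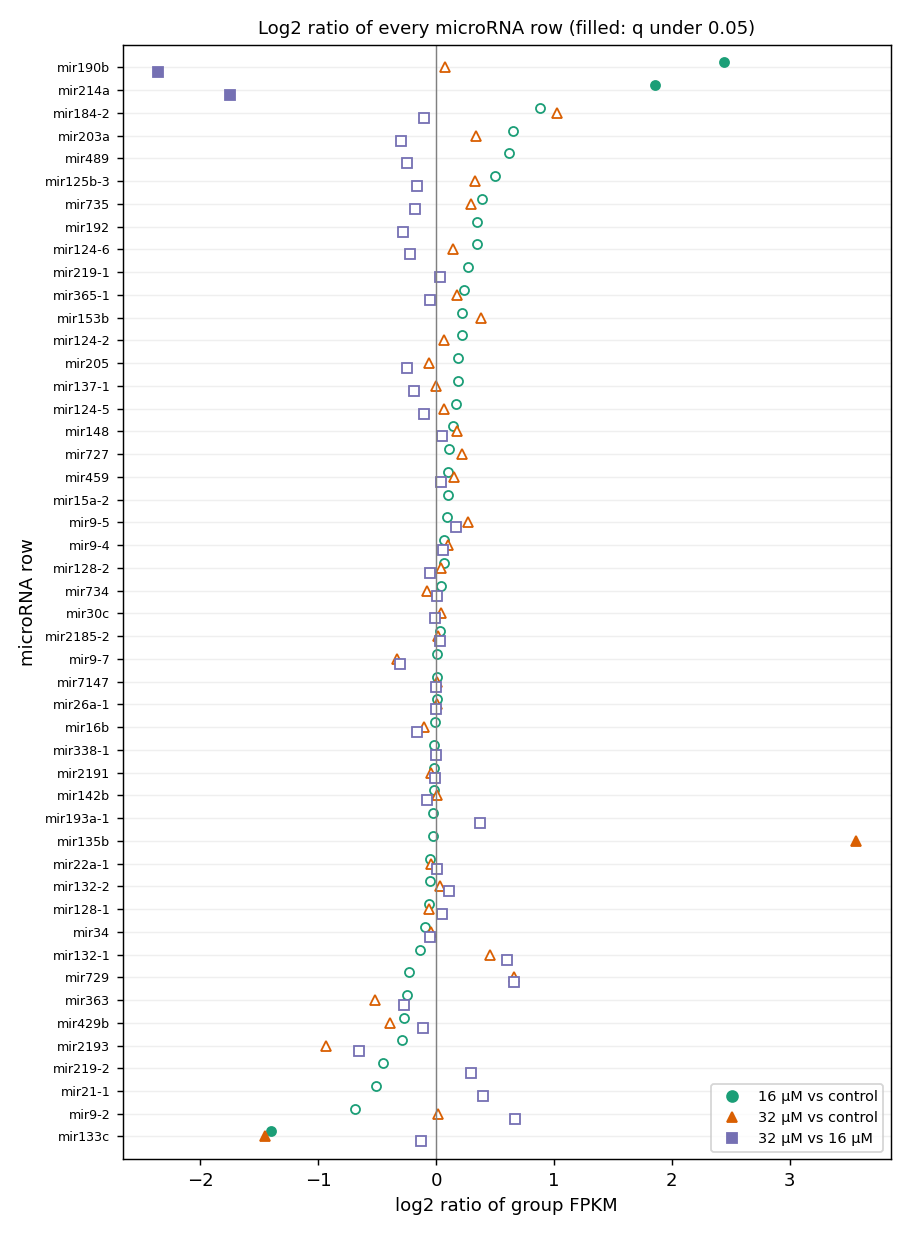
Log2 ratio of group FPKM (horizontal) for each microRNA name (vertical, ordered by the ratio at 16 µM) in the 3 tables, with circles for 16 µM against control, triangles for 32 µM against control and squares for 32 against 16 µM, small vertical offsets for legibility, and filled symbols for a q-value under 0.05. Most symbols lie close to 0, and the filled ones belong to mir190b, mir214a, mir135b and mir133c; the ratio of mir15a-2 at 32 against 16 µM is not drawn because its level was listed at 0.

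mir190b is the locus of miR-190b and lies on chromosome 16 at 19767856 to 19769618 (danRer7, as the tables give it). RefSeq places it within the long noncoding RNA gene LOC137487838 in the assembly GRCz12tu, from which names and neighbours alone were taken. Its level was 2.58 FPKM in control and 14.1 FPKM at 16 µM in the authors' deposited table for 16 µM. In the authors' deposited table for 32 µM it was 3.10 FPKM in control and 3.27 FPKM with PFBS. The group at 16 µM was therefore high and both other groups were low, in each table that held them. The log2 ratio was 2.44 at 16 µM (5.43-fold, q = 0.0219) and 0.08 at 32 µM (q = 0.957) in the authors' deposited tables. The direct comparison of 32 with 16 µM in the authors' deposited table gave -2.36 (14.2 to 2.79 FPKM, q = 0.0194). The 2.44 at 16 µM was the largest ratio by size among the 76 called rows of its table, where the median size was 0.45.

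mir214a is the locus of miR-214a, which in zebrafish embryos is known to tune the response of muscle precursors to Hedgehog signals. Its row on chromosome 20 has the locus 14733880 to 14839571, exactly that of dnm3a, the gene of a dynamin that RefSeq also places around mir214a. In mammals miR-214 comes from a transcript on the opposite strand of the dynamin 3 gene. The mir214a level was 2.13 FPKM in control and 7.73 FPKM at 16 µM in the authors' deposited table for 16 µM, and 7.36 FPKM at 16 µM and 2.19 FPKM at 32 µM in that for 32 against 16 µM. As for mir190b, the group at 16 µM stood alone. The log2 ratios were 1.86 at 16 µM (3.63-fold, q = 0.0219) and -1.75 for 32 against 16 µM (q = 0.0194) in the authors' deposited tables. The libraries kept strand, but whether the counting used it is not given in the sources used here, so reads of overlapping transcripts may be split between these rows. The dnm3a row at that locus had 1.88 and 1.91 FPKM in control and at 16 µM and a log2 ratio of 0.02 (q = 0.998) in the authors' deposited table. The row of the gene around mir214a thus stood at the same level in both groups. For 32 µM against control, dnm3a had a ratio of 0.12 (q = 0.820) in the authors' deposited table, which held no row named mir214a.

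mir133c is the locus of miR-133c, a member of the miR-133 family of skeletal and heart muscle, on chromosome 17 at 5724892 to 5726229. RefSeq places it within the protein-coding gene plaat1l, which had no row under that name. Its level fell from 10.4 FPKM in control to 3.94 FPKM at 16 µM in the authors' deposited table for 16 µM. In the authors' deposited table for 32 µM it fell from 9.65 to 3.53 FPKM. Both PFBS groups were at about the same low level and control was high. The log2 ratios were -1.40 (q = 0.0219) and -1.45 (q = 0.00521) in the authors' deposited tables, and 32 against 16 µM gave -0.13 (q = 0.999). The control samples are shared, so the fall at both doses is not independent evidence.

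The row that pools mir133b with mir206-1, a pair of muscle microRNA loci on chromosome 20 (19615329 to 19617632), moved the other way. It is no member because it names more than 1 gene. Its level was 8.06 FPKM in control and 23.3 FPKM at 16 µM in the authors' deposited table for 16 µM, and 8.17 FPKM in control and 58.5 FPKM at 32 µM in that for 32 µM. The level was lowest in control and highest at 32 µM. It rose by 1.53 at 16 µM (q = 0.0219) and by 2.84 at 32 µM (q = 0.00521) in the authors' deposited tables, whereas the difference of 1.48 between the doses did not pass the test (q = 0.218). The row pooling mir1-1 and mir133a-2, the other muscle pair with a row, had 7.16 and 6.96 FPKM in control and at 16 µM, and log2 ratios of -0.04 and 0.07 at the 2 doses in the authors' deposited tables (q = 0.998 and 0.942). The muscle genes ckma, a creatine kinase, and mylpfa, a myosin light chain, had ratios of -0.11 and -0.05 at 16 µM and -0.13 and -0.08 at 32 µM in the authors' deposited tables, with no call. In whole larvae, fewer cells of a type and less RNA per cell cannot be told apart.

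mir135b is the locus of miR-135b, whose mammalian counterpart is known to repress the Wnt pathway gene APC, on chromosome 8 at 26858495 to 26859325. RefSeq places it within no other gene. Its level was 1.85 FPKM in control and 21.7 FPKM at 32 µM in the authors' deposited table for 32 µM, and 1.73 FPKM in control and 1.69 FPKM at 16 µM in that for 16 µM. The group at 32 µM alone was high. The log2 ratio was 3.56 at 32 µM (11.8-fold, q = 0.00521) and -0.03 at 16 µM (q = 0.998) in the authors' deposited tables. Among the 490 called rows of its table with both groups above 0, mir135b had the largest ratio by size. The authors' deposited table for 32 against 16 µM held no row named mir135b, so the difference between the doses was not tested.

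**Figure D2:**
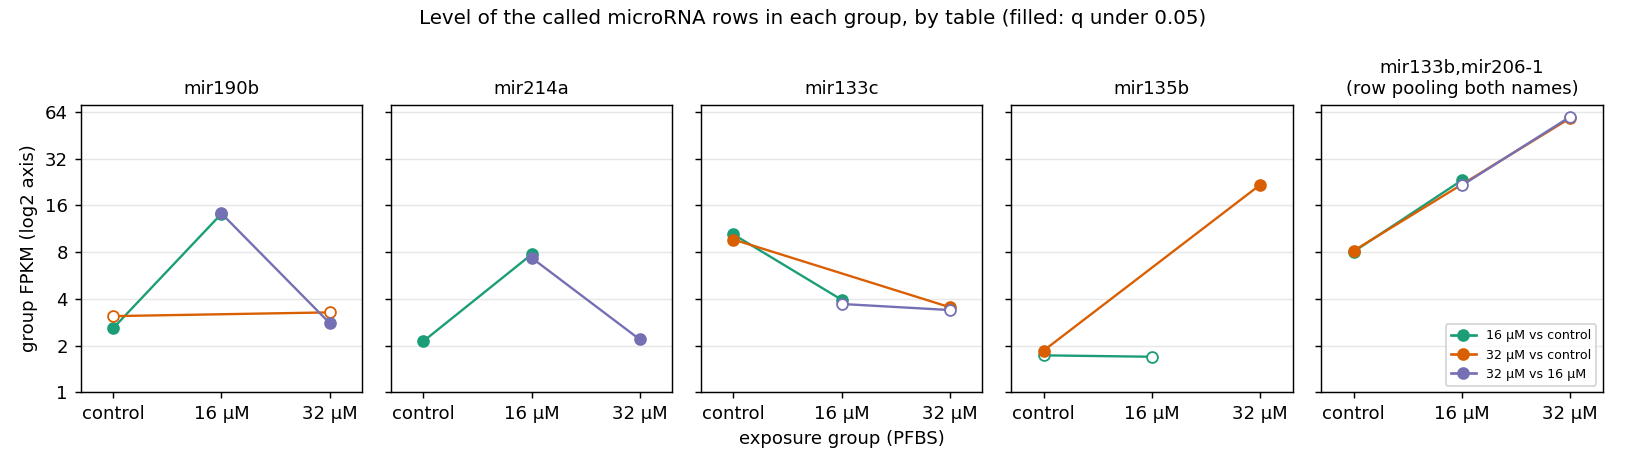
Group FPKM (vertical, log2 axis) of the 4 called microRNA rows and of the row pooling mir133b and mir206-1 in control, 16 µM and 32 µM PFBS (horizontal). Each line joins the 2 groups of 1 table, filled points mark a q-value under 0.05, and levels of a group from different tables lie close together; mir190b and mir214a are high at 16 µM alone, at 14.1 and 7.73 FPKM.

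None of the rows next to the called microRNA rows was called in any table, where 0.260%, 1.83% and 0.329% of all rows were called. With shares that low, the lack of a call among so few neighbours says little. Around mir190b, the nearest row at lower coordinates is unnamed and lies 5025 bases away, and zgc:174935 lies 4663 bases away on the other side. Their log2 ratios at 16 µM were -0.10 and 0.13 in the authors' deposited table. Around mir135b, the DNA repair gene xpc, 1607 bases away, had -0.03 at 32 µM, and the nearest row on the other side, si:dkey-72l14.3, had -0.18 in the authors' deposited table. Around mir133c, the nearest row was unnamed, 3123 bases away, with 0.16 at 16 µM, and ephx2, an epoxide hydrolase gene 52273 bases away, had 0.10 in the authors' deposited table. Around mir214a, pigc and mettl13 had 0 and -0.07 at 16 µM in the authors' deposited table. Around the row pooling mir133b and mir206-1, the unnamed row 247 bases away had a ratio of 0.58 at 16 µM (q = 0.998) in the authors' deposited table. The widest neighbour ratio was 0.82 at 16 µM (q = 0.998), for an unnamed row of 0.457 FPKM in control, 1127 bases from mir135b, which itself had -0.03 in that authors' deposited table.

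**Figure D3:**
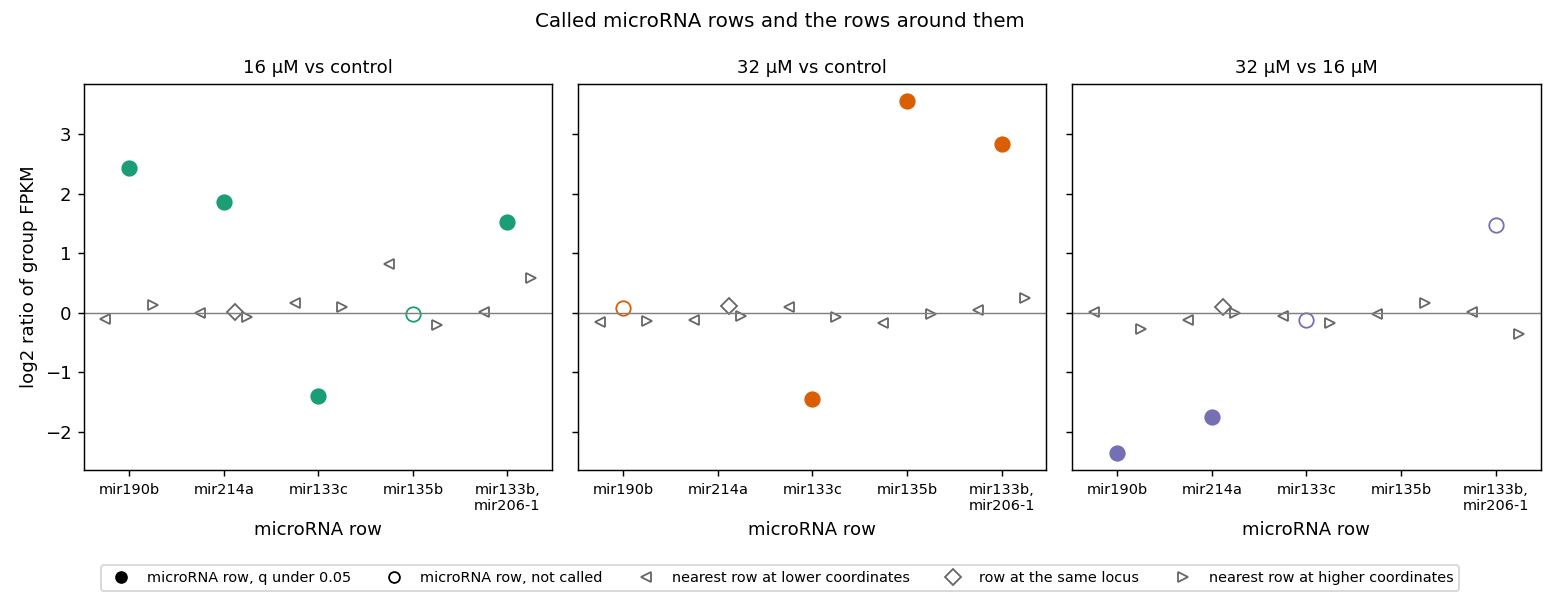
Log2 ratio of group FPKM (vertical) of the 4 called microRNA rows and the pooled row of mir133b and mir206-1 (circles, filled where q is under 0.05), with the nearest rows on both sides (triangles) and the row at the same locus (diamond), in 1 panel per table. The neighbours lie between -0.36 and 0.82, and the row at the mir214a locus is dnm3a, at 0.02, 0.12 and 0.09.

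The level of microRNA rows in control covered a wide range. The median was 4.20 FPKM in the table for 16 µM, near the 4.32 FPKM of all rows, and 46 of 48 rows reached 1 FPKM in at least 1 group. mir2193 stood highest with 66.7 FPKM, followed by mir128-1 with 43.4, mir429b with 23.9, mir124-5 with 23.4 and mir363 with 22.9 FPKM. Next came mir124-2 with 21.3, mir22a-1 with 18.9, mir9-7 with 17.0, mir15a-2 with 14.5 and mir26a-1 with 14.4 FPKM. The mir9-7 row has a locus of 1200930 bases, which overlaps 8 other rows and is shared with cirbpa, stk11 and other named genes. The highest rows thus mix hairpin-length loci, nervous system loci and loci within coding genes. Over all rows with loci under 200 bases the median in control was 39.7 FPKM. Of the microRNA rows that short, mir2193 lay above this median and mir363 and mir15a-2 below it. mir184-2 was lowest with 0.678 FPKM. Without values per sample, which neighbours in this order differ beyond their spread is not known. Of the called rows, mir133c was number 15 in this order, mir190b number 33, mir214a number 35 and mir135b number 40.

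**Figure D4:**
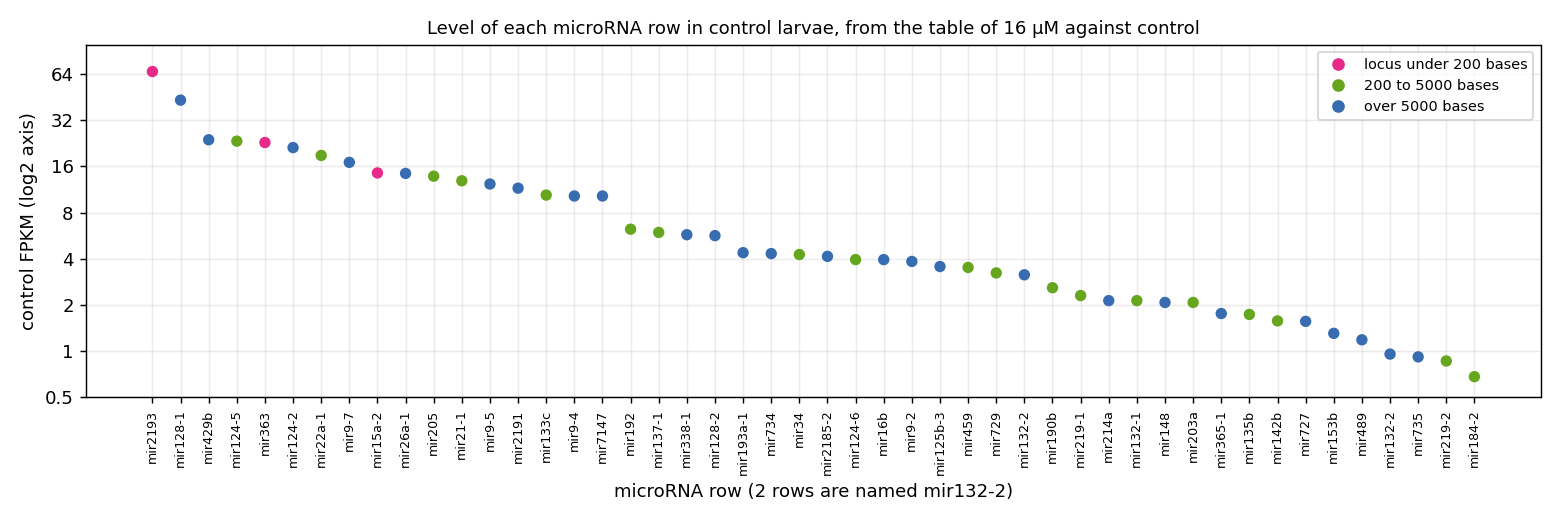
Control FPKM (vertical, log2 axis) of each microRNA row in the table of 16 µM against control, ordered by level, with the colour giving the length class of the row's locus. The 3 rows with loci under 200 bases, mir2193, mir363 and mir15a-2, lie among the 9 highest. The median of all rows that short was 39.7 FPKM.

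The nervous system gave the most rows. Its 13 rows at 16 µM held loci of miR-9, miR-124, miR-128, miR-137, miR-153 and miR-219. No nervous system row was called in any table, where 0.260%, 1.83% and 0.329% of all rows were called. With shares that low, the lack of a call among so few rows says little. The log2 ratios of these rows ran from -0.69 to 0.35 at 16 µM and from -0.33 to 0.38 at 32 µM in the authors' deposited tables. For 32 against 16 µM they ran from -0.31 to 0.67. The 3 rows of miR-124, a microRNA of differentiated neurons, had ratios of 0.22 (mir124-2), 0.17 (mir124-5) and 0.35 (mir124-6) at 16 µM and of 0.07, 0.07 and 0.14 at 32 µM in the authors' deposited tables. All were positive and none passed the test, and the mir124-2 row has the same locus as a row of ift172. RefSeq places mir124-2, mir128-1, mir128-2, mir137-1, mir153b and mir9-4 within protein-coding genes, so these rows may not be of the microRNA's own transcript. The 4 rows of miR-9, a microRNA of neural progenitors, had -0.69 (mir9-2), 0.07 (mir9-4), 0.09 (mir9-5) and 0.01 (mir9-7) at 16 µM in the authors' deposited table. At 32 µM the same rows had 0.02, 0.10, 0.27 and -0.33 in the authors' deposited table. The mir9-7 row shares its locus with several other genes, as given above. Which miR-9 row lay farthest from 0 thus differed between the tables, and none was called. mir128-1 had 43.4 and 41.6 FPKM in control and at 16 µM and a ratio of -0.06 at both doses in the authors' deposited tables. mir128-2 had 0.07 and 0.04 there. The ratio of mir137-1 was 0.19 at 16 µM and 0 at 32 µM in the authors' deposited tables, and that of mir153b was 0.22 and 0.38. None of these ratios passed the test. mir132-1, of a family induced by neuronal activity in mammals, had -0.14 and 0.46 in the authors' deposited tables (q = 0.998 and 0.595). mir132-2 had 2 rows with the same locus at 16 µM, at 3.14 and 0.953 FPKM in control, with ratios of -0.05 and 0.03 in the authors' deposited table. A row of zdhhc20a has that locus too.

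Epithelial, blood and growth-linked loci gave no call in any table, where 0.260%, 1.83% and 0.329% of all rows were called. For so few loci, that lack of a call says little. mir205, known from the epidermis, had 13.8 and 15.8 FPKM in control and at 16 µM, and log2 ratios of 0.19 and -0.06 at the 2 doses in the authors' deposited tables. mir429b, of the miR-200 family, had ratios of -0.27 and -0.39 in the authors' deposited tables (q = 0.998 and 0.965). mir203a, of the epidermis, had 0.65 and 0.34 in the authors' deposited tables, at 2.07 FPKM in control. No epithelial locus passed the test. The blood locus mir142b had ratios of -0.02 and 0.01 in the authors' deposited tables. mir21-1, of a microRNA induced by growth and injury, had -0.51 at 16 µM (12.9 to 9.06 FPKM, q = 0.458), the smallest q among microRNA rows not called in that authors' deposited table. mir22a-1 had -0.05 and -0.04, and mir34, of a p53 target in mammals, -0.09 and -0.04 in the authors' deposited tables. The ratio of mir192, of a microRNA of gut and liver in mammals, was 0.35 in the authors' deposited table for 16 µM, and that of mir125b-3 was 0.50 and 0.33 at the 2 doses. The remaining names, mir148, mir16b, mir2185-2, mir219-1, mir219-2, mir30c, mir365-1, mir459, mir727 and mir735, had ratios from -0.45 to 0.39 at 16 µM and from -0.10 to 0.30 at 32 µM in the authors' deposited tables. The rows of mir148 and mir735 share their loci with other named genes, hnrnpa3 and crp7 among them.

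Some rows had wide ratios without a call, at low and at high levels. mir184-2 had 0.678 and 1.25 FPKM in control and at 16 µM and log2 ratios of 0.88 and 1.03 at the 2 doses in the authors' deposited tables (q = 0.998 and 0.583). mir729 had -0.23 and 0.66, and mir489 had 0.62 at 16 µM from 1.18 FPKM in the authors' deposited tables. Among rows above 0 in both groups, 3 of 48 microRNA rows (6.25%) differed by 2-fold or more at 16 µM, against 2.96% of all rows. At 32 µM these were 3 of 39 (7.69%) against 2.46%, and for 32 against 16 µM 2 of 44 (4.55%) against 2.97%. The median size of the log2 ratio was 0.16 for microRNA rows and 0.10 for all rows at 16 µM, 0.10 for both at 32 µM, and 0.12 and 0.09 for 32 against 16 µM in the authors' deposited tables.

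The loci differed in length by orders of magnitude. At 16 µM, 3 microRNA rows had loci under 200 bases, about the length of a hairpin, 19 had 200 to 5000 bases and 26 had more. The hairpin-length rows were mir15a-2 (102 bases), mir2193 (110 bases) and mir363 (127 bases). mir2193 had 66.7 FPKM in control and 54.9 FPKM at 16 µM, and 67.2 and 35.3 FPKM in control and at 32 µM, with log2 ratios of -0.29 and -0.93 in the authors' deposited tables (q = 0.998 and 0.698). mir363, of a cluster linked to cell proliferation, had -0.25 and -0.52 in the authors' deposited tables. mir15a-2 had 14.5 and 15.7 FPKM in control and at 16 µM, and was listed at 0 at 32 µM beside 15.9 FPKM at 16 µM in the authors' deposited table for 32 against 16 µM (q = 0.875). The authors' deposited table for 32 µM against control held no row named mir15a-2, so that 0 was not compared with control.

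Size of change and calls both varied with locus length. Of all rows under 200 bases, 15.6% at 16 µM, 15.8% at 32 µM and 16.8% for 32 against 16 µM differed by 2-fold or more, and yet none of the 302, 311 and 371 such rows was called in the authors' deposited tables. The shares of 2-fold differences at 200 to 5000 bases were 5.87%, 5.04% and 5.77%, and over 5000 bases 1.04% at 16 µM and 0.848% at 32 µM. The called rows mir190b (1762 bases), mir133c (1337 bases) and mir135b (830 bases) lie in the middle class, and mir214a (105691 bases) in the longest. For rows that share a locus with another gene, such as mir214a with dnm3a, the length is that of the shared locus. In the middle class 2 of 19 microRNA rows were called at 16 µM (10.5%), against 0.297% of all rows of that length, and 2 of 16 at 32 µM, against 1.45%. Over 5000 bases 1 of 26 microRNA rows was called at 16 µM (3.85%), against 0.242% of all rows of that length, and 0 of 21 at 32 µM, against 2.07%. The smallest q of those 21 rows was 0.398 in the authors' deposited table. Over all rows at 32 µM, calls were thus more frequent in the long class than in the middle class. The part of locus length in these results was not tested.

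**Figure D5:**
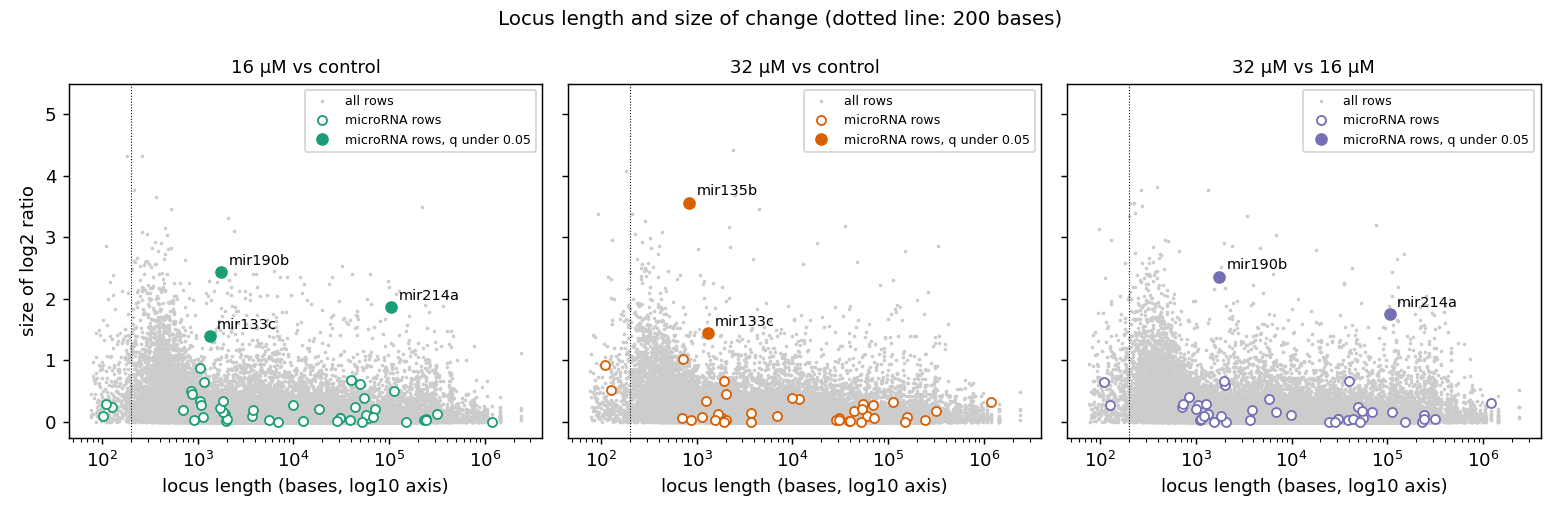
Size of the log2 ratio (vertical) against locus length in bases (horizontal, log10 axis) for all rows above 0 in both groups (grey) and for microRNA rows (circles, filled where q is under 0.05), in 1 panel per table, with a dotted line at 200 bases. The share of grey points at 2-fold or more is highest under 200 bases, while the largest ratio by size in each panel belongs to a longer locus. The filled circles lie above the other microRNA rows of their panels.

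Many microRNA rows shared their locus with other transcripts. At 16 µM, 13 of 48 microRNA rows (27.1%) overlapped another row by at least 1 base, against 15.3% of all rows. All 48 names matched RefSeq, 34 as a symbol and 14 as a synonym. RefSeq places 24 of them within a protein-coding gene, 13 within long noncoding RNA genes alone and 11 within no other gene. A separate row for the surrounding gene, here called the host, was found for 8 names at 16 µM. Hosts were matched by their RefSeq symbol alone, so a host listed under an older name was missed. Strand was not used in this placement, so a host may lie on the opposite strand. At 16 µM, 4 of the 8 host rows had the same locus as the microRNA row. None of the host rows was called in any table, where 0.260%, 1.83% and 0.329% of all rows were called. mir124-2 had a log2 ratio of 0.22 and its host ift172, a gene of ciliary transport, -0.18 at 16 µM in the authors' deposited table. mir429b had -0.27 and its host ppil1, a splicing factor gene, 0.09 in the authors' deposited table. For mir9-4, whose row overlapped no other row, the ratio was 0.07 and for its host tmem161a -0.07 in the authors' deposited table. mir34, whose row also overlapped no other row, had -0.09 and its host spsb1 -0.05 there. The dnm3a and mir214a rows, described above, differed most at 16 µM.

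A further 11 microRNA rows at 16 µM spanned over 5000 bases, lay within a protein-coding gene of RefSeq and had no separate host row by that match. At 32 µM 9 of these had a row, and mir338-1 and mir489 had none. The median size of change of the rows present was 0.04 at each dose, against 0.07 and 0.08 for all rows over 5000 bases. None was called at either dose, against 0.242% and 2.07% of all rows of that length. For so few rows, that lack of a call says little. The largest at 16 µM was the 0.62 of mir489. They included mir128-1, mir128-2 and mir26a-1, which RefSeq places within r3hdm1, arpp21 and ctdsp1. mir26a-1 had ratios of 0.01 at both doses in the authors' deposited tables. mir2191 had -0.02 and -0.04, mir7147 had 0.01 and 0.01, mir338-1 had -0.02 at 16 µM, and mir734 had 0.04 and -0.08 in the authors' deposited tables. Whether such a row counts the host transcript is not stated in the sources used here.

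Levels of the same group could be compared between tables as a check on the assemblies, though the samples are the same. Over 116 pairs of values the median difference was 0.045 on the log2 scale, 72 pairs lay within 0.1 and 8 differed by more than 0.5. The largest difference, 1.62, belonged to mir193a-1 at 16 µM, with 4.29 FPKM in the table for 16 µM and 1.39 FPKM in that for 32 against 16 µM. mir9-2 in control had 3.84 and 6.82 FPKM, mir9-5 in control 12.3 and 7.36 FPKM, and mir124-6 at 16 µM 5.03 and 9.38 FPKM. The ratio of -0.69 for mir9-2 at 16 µM in the authors' deposited table is smaller in size than the difference of its control level between tables. All called ratios were larger in size than those differences of their own rows that could be taken. The largest of these was mir190b in control with 2.58 and 3.10 FPKM. For mir135b the control group alone had a second value, and for mir214a the group at 16 µM alone. The high level of mir135b at 32 µM was therefore not compared between tables.

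No measured gene of a list of those that make and use microRNAs passed the test. Of 30 genes listed, 14 had a row of their own at 16 µM, 13 at 32 µM and 14 for 32 against 16 µM. The export gene xpo5 had no row under the names searched, nor had any Argonaute gene except ago4. None was called in any table, against 0.260%, 1.83% and 0.329% of all rows. With shares that low, the lack of a call in so short a list says little. The smallest q was 0.998, 0.479 and 0.999 in the authors' deposited tables. Unadjusted p-values are not among the columns used here. Their log2 ratios ran from -0.13 to 0.11 at 16 µM and from -0.11 to 0.11 at 32 µM in the authors' deposited tables. For 32 against 16 µM they ran from -0.21 to 0.11. Nuclear cleavage was represented by drosha (under its older name rnasen), with 7.62 and 7.21 FPKM in control and at 16 µM, and by a row pooling dgcr8 with mir1306, with a ratio of -0.03 in the authors' deposited table. dicer1 had 6.45 and 6.32 FPKM and ratios of -0.03 and 0.06 at the 2 doses in the authors' deposited tables. The Argonaute gene ago4 had -0.03 and -0.05, and tnrc6a, a partner of Argonaute in repression, -0.07 and -0.04 in the authors' deposited tables. The ribonuclease gene parn, at 22.6 FPKM in control, had -0.13 and -0.11 in the authors' deposited tables.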

How the data were processed

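Polyadenylated RNA of 9 samples in 3 groups was measured. Per the file headers, the authors deposited the log2 FPKM of each group, a log2 ratio and a q-value; they named Cufflinks and the build danRer7 per the submitters' processing notes. Which aligner, annotation and test they used was not given in the sources used here. Depth per sample is unknown. Each ratio equals the difference of the group values to within 0.01, and calls are q-values under 0.05, both checked on every row; -10 stands for an FPKM of 0.

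Rows were read with Python 3.11.15 and pandas 2.3.3. Overlap means at least 1 shared base, without strand. Overlap counting and the name rule were tested on made rows with known answers. RefSeq GRCz12tu gave names and surrounding genes, also without strand. No genome or sequence table came with the files, so no sequences are shown.

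Rows were named by rule (33 names): called rows, the 10 smallest q-values (ties alphabetical), the 10 highest control levels, the 10 largest and smallest ratios among rows reaching 5 FPKM, and hosts. Other names were chosen after their values were seen. Members and lists were chosen with earlier results of these data known. No test over the list was made. Alternatives were thresholds, FPKM floors, pseudocounts, overlapping rows and row definitions.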

Additional observations from a re-analysis of the deposited data

Results flagged for a closer look

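The effects of 16 and 32 µM PFBS on mir190b and mir214a differed by the authors' own test between the doses. The log2 ratio of 32 against 16 µM was -2.36 for mir190b and -1.75 for mir214a in the authors' deposited table, both with q = 0.0194. Each group of 3 samples has a single value here, so whether 1 of the samples at 16 µM decides either ratio was not tested.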

How the results depend on the processing

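With q under 0.01, 0 of 48 microRNA rows were called at 16 µM and 0 of 45 for 32 against 16 µM. Every called microRNA row had q = 0.0219 or 0.0194 in those tables. Called microRNA rows of 1 table shared 1 q-value whatever their ratio, and the share of all rows under 0.01 was not taken. This cut therefore says little about the microRNA rows. Leaving out rows that overlap another row removes mir214a. Then 2 of 35 microRNA rows were called at 16 µM and 1 of 30 for 32 against 16 µM. The share of all such rows called was not taken. Among rows reaching 5 FPKM the median log2 ratio was -0.02 at 32 µM and -0.10 for 32 against 16 µM; the cause was not tested. Of 27 alternative counts, 24 stayed within 1.5 times the reported count, and 10 of 12 alternative medians moved by less than 0.045, the median difference between tables. A pseudocount of 1 brought 23 of 90 ratios of named rows closer to 0 by more than that, mir190b at 16 µM to 2.08 among them, and reversed 0. Adding let-7 rows and leaving out loci under 200 bases were chosen after the data were seen. No paired analysis was possible because the tables hold 1 value per group, and leaving out replicates was not run for the same reason.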

Other observations

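Loci of let-7, a microRNA of late development whose names do not follow the rule, had 3 rows in each table. mirlet7a-5, on chromosome 23, had 3.41 FPKM in control and 1.99 FPKM at 16 µM in the authors' deposited table for 16 µM, and 3.43 FPKM in control and 1.77 FPKM at 32 µM in that for 32 µM. Its log2 ratios were -0.78 (q = 0.729) and -0.96 (q = 0.0512) in the authors' deposited tables, so it did not pass the test at either dose. mirlet7h had 27.9 FPKM in control, more than all but 2 of the microRNA rows, and ratios of -0.03 and 0.04 in the authors' deposited tables. mirlet7f had ratios of 0.23 and 0.33 without a call in the authors' deposited tables. Rows pooling a microRNA with a coding gene had small ratios: 0.18 for fev with mir1788, 0.07 for ska2 with mir454a and -0.03 for dgcr8 with mir1306 at 16 µM in the authors' deposited table.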
